A study of Mus musculus with 8 samples.

Results

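Collagens and laminins are the proteins that build the extracellular scaffold of a tissue, and their chain genes were followed across the 4 groups of a mouse brain knockdown series. The members are all gene symbols that begin with Col and name an alpha chain, or begin with Lam and name an alpha, beta or gamma chain, with a total of at least 10 counts over the 8 libraries. This rule gave 55 of 23393 named genes, namely 44 collagen chains and 11 laminin chains, and no matching symbol fell below the minimum. All 55 members were among the 17415 genes that passed the filter on low counts and were tested. The rule uses symbols and a count minimum and no difference between groups.

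Gene expression was measured by bulk RNA sequencing of total lysate of the prefrontal cortex of C57BL6/J mice aged 6 to 8 weeks, in 2 libraries per group. The shAdnp mice had received AAV9, an adeno-associated virus, with a hairpin RNA that the titles tie to Adnp, and a set of GFP-AAV9 mice served as their controls. The shPogz mice had received AAV9 with a hairpin tied to Pogz, and a separate set of GFP-AAV9 mice served as their controls. Adnp and Pogz encode chromatin-associated zinc finger proteins. All mice thus carried an AAV9 vector, and the strain was the same in every group. The treatment label of both hairpin groups names ASH1L, against the titles, from which the groups were taken. The labels call the samples biological duplicates, the design text speaks of more knockdown mice than the libraries analysed here, and neither says whether animals were pooled. The promoter that drives each hairpin is not given in the sources used here.

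Collagen chains wind into triple helices, and laminin chains assemble into cross-shaped trimers of an alpha, a beta and a gamma chain. In the brain, laminins and the network-forming collagen IV make the basement membranes around blood vessels and under the pia. Fibrillar collagens and collagen VI lie mainly in the meninges and in the sheaths of larger vessels, where fibroblasts make them. A few collagens, among them Col19a1 and Col25a1, are known as products of neurons.

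Named genes held 27501722 to 69002749 counts per library. Rn45s, the ribosomal RNA precursor, made up 7.62% of shAdnp replicate 1 and 0.134% to 0.740% of each other library. The knockdowns did not pass the test at the RNA level. Adnp stood at 87.2 and 118 CPM (counts scaled to library size by TMM, edgeR's CPM unit) in shAdnp, against 137 and 111 CPM in its GFP controls, and the ranges overlapped (log2 fold change -0.27 ± 0.19 SE, adjusted p = 0.768). Pogz stood at 49.0 and 37.3 CPM in shPogz, against 54.4 and 53.1 CPM in its GFP controls, both lower (-0.32 ± 0.16 SE, adjusted p = 0.667). Ash1l differed by -0.10 ± 0.14 in shAdnp and by 0.11 ± 0.14 in shPogz (log2, SE). The summed level of 9 neuronal markers ran from 6166 to 9480 CPM over the 8 libraries, and none of them was at 0 in any library.

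Set against transcript length, the most abundant members were of several kinds. Col19a1, a fibril-associated collagen of interneurons, averaged 14.1 CPM per kb of exon over the 8 libraries, with a range of 10.7 to 18.0. Col6a1, a chain of the beaded collagen VI microfibrils, averaged 12.5 CPM per kb (9.88 to 15.2), and Col4a1, a chain of the collagen IV found in almost all basement membranes, 11.9 CPM per kb (9.37 to 13.8). The neuronal transmembrane collagen Col25a1 followed with 10.8 CPM per kb (6.85 to 13.2). The ranges of these 4 overlapped, so their order is not resolved. Col4a2 averaged 8.40 CPM per kb, Col1a2 7.98 and Lamc1 7.61, again with overlapping ranges. At the other end stood Col6a5 with 0.0398 CPM per kb, Col4a4 with 0.0520 and Col4a3 with 0.0820, the last 2 being chains best known from the kidney and the ear. The lowest total of any member was 159 counts over all libraries.

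**Figure D1:**
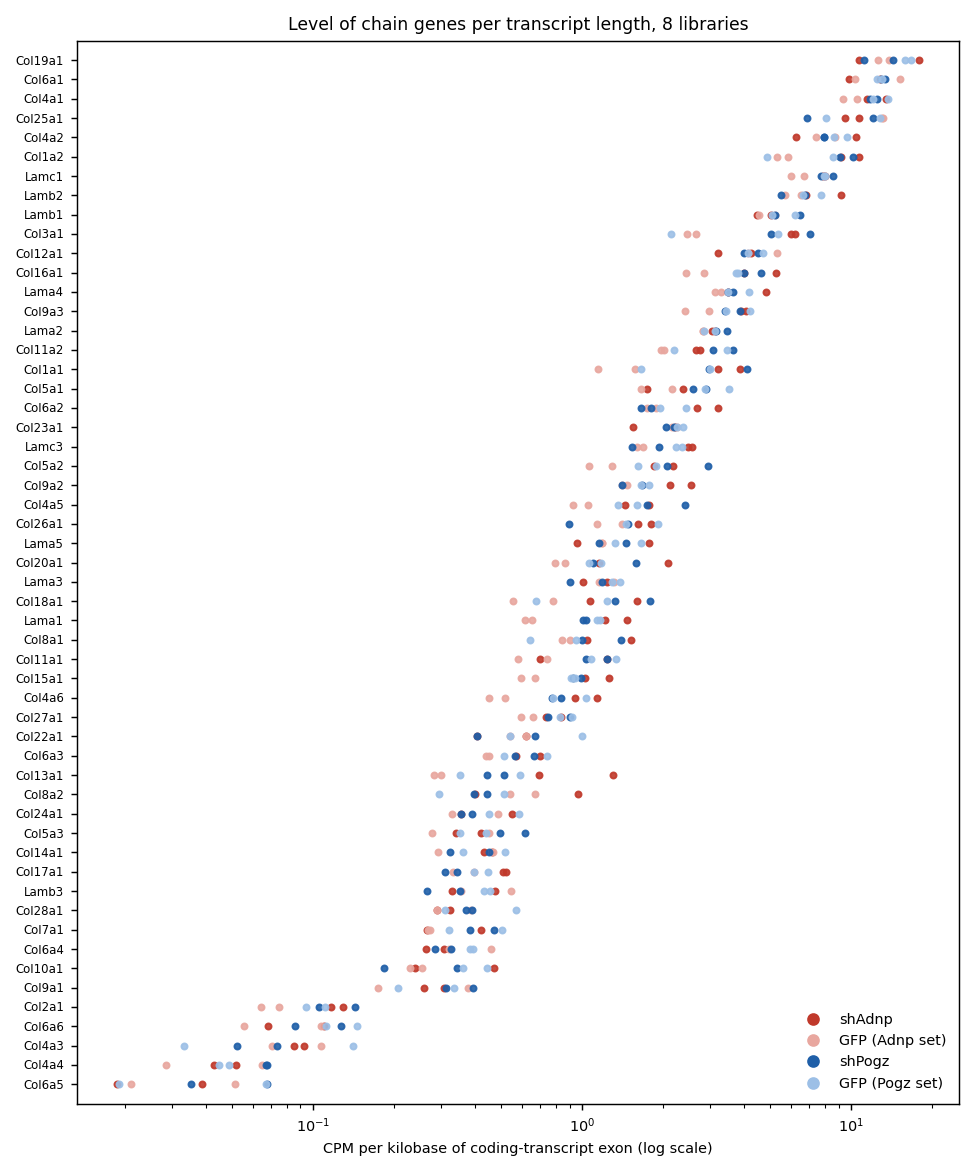
Level of the collagen and laminin chain genes, 1 member left out, per kb of exon (CPM per kb, log axis), with a point for each library. Col19a1, Col6a1, Col4a1 and Col25a1 lie at the top with overlapping ranges, and Col6a5 lies lowest at a mean of 0.0398.

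In shAdnp prefrontal cortex, collagen and laminin chain genes lay mostly above the GFP controls, but no member passed the adjusted threshold. The median log2 fold change of the 55 members was 0.34, against -0.01 over all 17415 genes tested, and 44 of 55 members lay above 0, against 47.7% of all genes. At an unadjusted p under 0.05, 22 of 55 members (40.0%) were higher, beside 6.67% of all genes, and 0 were lower, beside 1.69% of all genes. Both shAdnp libraries lay above both controls for 29 members (52.7%, against 20.4% of all genes) and below both for 2, Col25a1 and Col6a4 (3.64%, against 21% of all genes). After Benjamini-Hochberg adjustment in edgeR, 0 of 55 members passed, as did 0% of all genes, and the smallest adjusted p of a member was 0.295. DESeq2 placed 11 of 55 members (20.0%) past its adjusted threshold, all higher, beside 2.39% of all genes called higher, while limma-voom called 0 genes. In bulk tissue, more cells of a type and more RNA per cell cannot be told apart. Without GFP control replicate 1 of this set the unadjusted count was 13 in place of 22, beside 2.88% of all genes in that fit, and without shAdnp replicate 2 the median was 0.17.

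**Figure D2:**
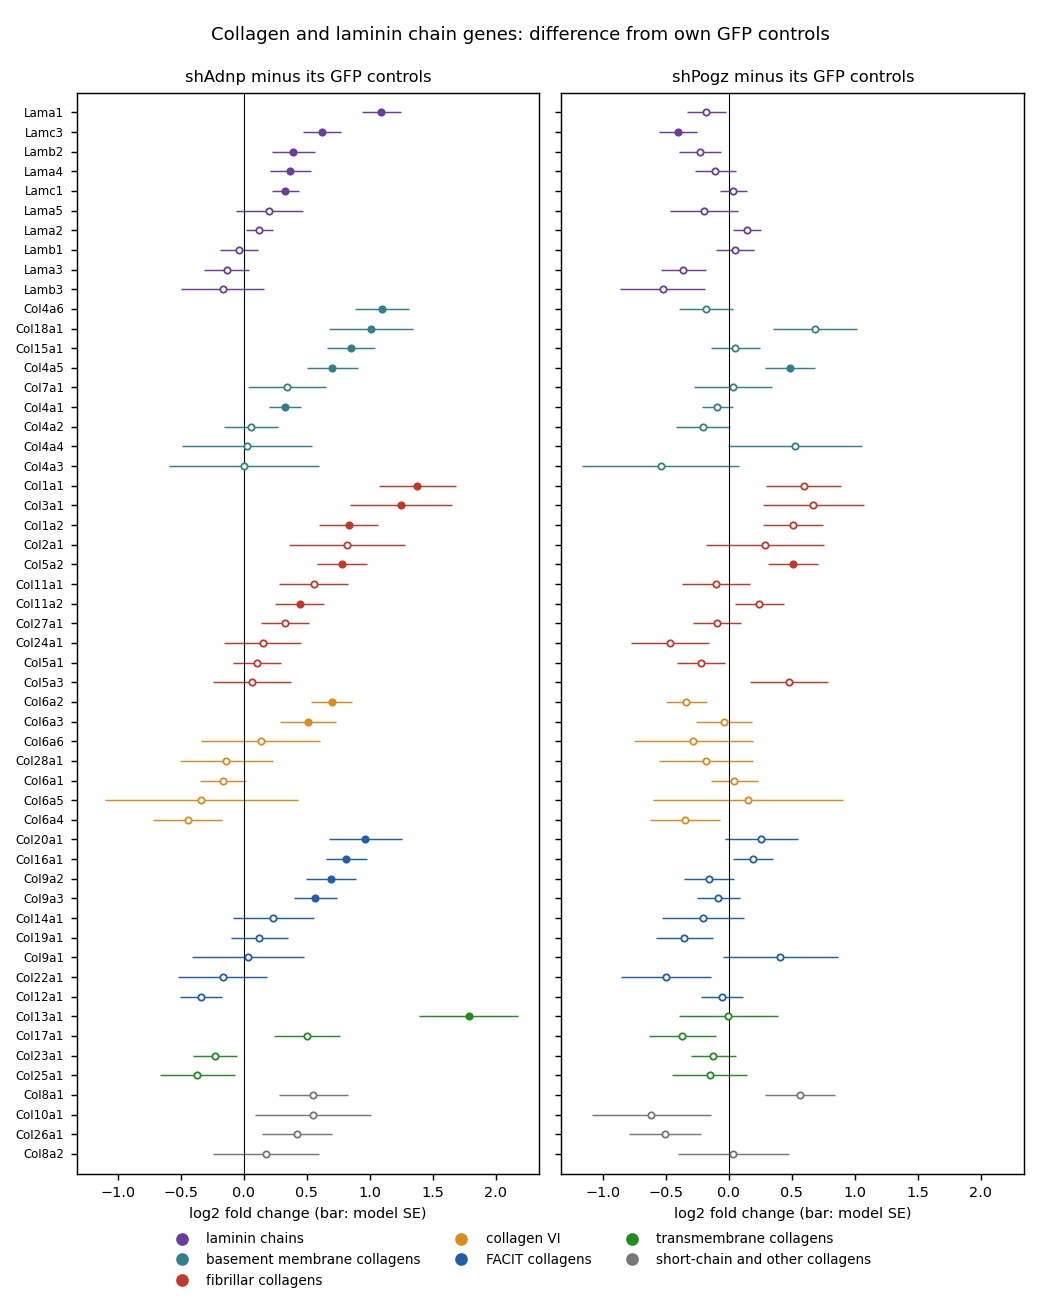
Log2 fold change of the members, 1 left out, in shAdnp and in shPogz against its own GFP controls, with bars for 1 SE and filled points for an unadjusted p under 0.05. The shAdnp points lie mostly right of 0 (44 of all 55 members) and those of shPogz lie on both sides (22 of all 55 above 0).

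Among the laminins, 5 of 11 chains were higher in shAdnp at an unadjusted p under 0.05, beside 6.67% of all genes. Lower at that p were 0 chains, beside 1.69% of all genes, and the median log2 fold change was 0.33. Between the GFP sets, 10 of 11 laminin chains stood higher in the Pogz-set controls (median 0.26). Lama1, the alpha chain of the laminin of embryonic and pial basement membranes, stood at 14.1 and 11.6 CPM in shAdnp, against 5.84 and 6.21 CPM in its GFP controls. Both shAdnp libraries lay well above both controls (log2 fold change 1.09 ± 0.16 SE, adjusted p = 0.295 in edgeR). The gene lies at chr17:67697259-67822647 (GRCm38). Lamc3, a gamma chain of the pial surface of the cortex, had 14.6 and 15.1 CPM in shAdnp, against 9.40 and 9.89 CPM in its GFP controls, with no overlap (0.62 ± 0.15). Lamc1, the gamma chain of most vascular laminins, had 61.0 and 60.2 CPM in shAdnp, against 45.6 and 50.9 CPM in the controls (0.33 ± 0.10). Its groups did not overlap either, though the step was smaller.

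Lamb2, the beta chain prominent in mature vessel walls and synaptic sites, had 38.4 and 51.9 CPM in shAdnp, against 32.1 and 36.7 CPM in its controls (0.39 ± 0.17). Lama4, an endothelial alpha chain, had 21.1 and 29.2 CPM in shAdnp, against 19.0 and 20.0 CPM in the controls (0.37 ± 0.16). In both cases the 2 shAdnp libraries lay above both controls and differed from each other by more than the controls did. Lama2, the alpha chain laid down by astrocytes and mural cells, had 29.8 and 30.7 CPM in shAdnp, against 27.8 and 27.7 CPM in the controls (0.12 ± 0.11), a small step. Lama5, the other endothelial alpha chain, had 11.0 and 20.2 CPM in shAdnp, on both sides of the 13.6 and 13.5 CPM of its controls. Lamb1, the beta chain of most laminins, had 29.4 and 26.2 CPM in shAdnp, against 26.6 and 30.5 CPM in its controls, with overlap (-0.04). Lama3 and Lamb3, chains of an epithelial laminin, differed by -0.14 and -0.17 on the log2 scale.

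Basement membrane collagens were all above 0 in shAdnp (9 of 9, median log2 fold change 0.34). Not all were clearly so: the weakly expressed Col4a3 and Col4a4 stood at 0.002 ± 0.60 SE and 0.03 ± 0.52 SE, with overlapping groups. At an unadjusted p under 0.05, 5 of the 9 were higher, beside 6.67% of all genes. The Pogz-set GFP controls also stood above the Adnp-set GFP controls for 9 of 9 (median 0.55). Of these, 4 had an unadjusted p under 0.05, beside 4.65% of all genes higher. Col4a6, whose chain joins that of Col4a5 in a collagen IV of smooth muscle and epithelia, stood at 7.60 and 6.25 CPM in shAdnp, against 3.01 and 3.45 CPM in its GFP controls (1.10 ± 0.22 SE). Col4a5 had 11.6 and 9.49 CPM in shAdnp, against 6.07 and 6.88 CPM in its controls (0.70 ± 0.20). For both X-linked chains the shAdnp libraries lay above both controls. Col4a1, at chr8:11198423-11312826, had 75.7 and 89.5 CPM in shAdnp, against 62.0 and 69.7 CPM in its controls (0.33 ± 0.12). Its usual partner Col4a2, at chr8:11312805-11449287, had 40.4 and 67.7 CPM in shAdnp, on both sides of 56.4 and 47.7 CPM in the controls (0.05 ± 0.22). Thus the shAdnp libraries cleared the controls for Col4a1 but not for Col4a2, and a difference between these chains was not tested. Col15a1, a collagen that bridges basement membranes and fibrils, had 6.17 and 7.58 CPM in shAdnp, against 4.04 and 3.58 CPM in the controls (0.85 ± 0.19). Col18a1, the precursor of endostatin, had 10.9 and 7.31 CPM in shAdnp, against 3.76 and 5.28 CPM in the controls (1.01 ± 0.33), again with no overlap.

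Collagen IV genes lie head to head in pairs, so the sequence around each start is shown for the pair Col4a1 and Col4a2, of which Col4a1 had shAdnp libraries clear of the controls and Col4a2 had not, and for the pair Col4a5 and Col4a6, both clear of them. The windows are from RefSeq on GRCm38.p6, each 250 bases before to 50 bases after the start, 5′ to 3′ on the gene's own strand. They are chr8:11312777-11313076 (minus strand) for Col4a1, chr8:11312555-11312854 (plus) for Col4a2, chrX:141475169-141475468 (plus) for Col4a5 and chrX:141474027-141474326 (minus) for Col4a6. Capitals mark matches to CCAAT, to the GC box written GGGCGG and to the TATA box written TATAAA, searched on both strands, so that a match on the other strand shows its reverse complement. Within a window no 2 of these matches overlap. The GC box match of Col4a1 and the last GC box match of Col4a2 are the same bases, read on opposite strands.
Col4a1: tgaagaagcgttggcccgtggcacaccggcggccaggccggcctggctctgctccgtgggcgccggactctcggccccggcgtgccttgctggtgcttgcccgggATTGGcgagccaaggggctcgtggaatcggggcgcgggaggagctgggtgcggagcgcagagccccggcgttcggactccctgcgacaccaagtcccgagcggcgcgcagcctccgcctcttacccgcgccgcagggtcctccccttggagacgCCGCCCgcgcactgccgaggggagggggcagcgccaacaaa
Col4a2: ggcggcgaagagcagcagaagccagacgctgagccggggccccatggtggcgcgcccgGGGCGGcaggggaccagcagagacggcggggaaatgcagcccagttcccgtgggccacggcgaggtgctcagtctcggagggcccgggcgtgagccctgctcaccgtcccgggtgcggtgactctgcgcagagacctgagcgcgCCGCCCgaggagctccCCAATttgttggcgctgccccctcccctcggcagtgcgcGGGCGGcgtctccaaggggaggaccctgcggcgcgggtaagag
Col4a5: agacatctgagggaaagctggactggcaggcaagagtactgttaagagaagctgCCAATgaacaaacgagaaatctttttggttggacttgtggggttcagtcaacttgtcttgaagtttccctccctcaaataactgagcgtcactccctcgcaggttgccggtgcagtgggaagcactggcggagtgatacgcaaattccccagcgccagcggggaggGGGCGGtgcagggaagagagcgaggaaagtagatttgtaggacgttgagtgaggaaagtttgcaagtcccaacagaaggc
Col4a6: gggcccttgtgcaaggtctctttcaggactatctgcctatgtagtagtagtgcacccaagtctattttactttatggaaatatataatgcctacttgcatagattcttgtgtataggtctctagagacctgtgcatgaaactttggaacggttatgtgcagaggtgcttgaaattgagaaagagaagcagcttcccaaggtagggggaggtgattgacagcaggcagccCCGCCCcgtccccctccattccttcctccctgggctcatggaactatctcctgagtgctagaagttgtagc
The starts of Col4a1 and Col4a2 lie 21 bases apart and their windows share 78 bases, while those of Col4a5 and Col4a6 lie 1343 bases apart. The Col4a1 window holds 1 CCAAT and 1 GC box match, that of Col4a2 1 and 3, that of Col4a5 1 and 1, and that of Col4a6 0 and 1, and none of these 4 windows holds a TATA box match. Their GC contents were 74.0%, 73.7%, 52.7% and 48.3%, in that order. Of 32544 windows in the table, 37.4% held CCAAT, 35.9% a GC box and 13.6% a TATA box. Windows were found for 40 of 55 members (44 windows), of which 31.8% held CCAAT, 59.1% a GC box and 11.4% a TATA box.

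Fibrillar collagens had the highest median of the 7 classes in shAdnp, 0.55 on the log2 scale, with 11 of 11 above 0. At an unadjusted p under 0.05, 5 were higher, beside 6.67% of all genes. The Pogz-set GFP controls also stood above the Adnp-set GFP controls for 11 of 11 (median 0.55). Of these, 6 had an unadjusted p under 0.05, beside 4.65% of all genes higher. Col1a1, a chain of collagen I, the main fibril of meninges and vessel sheaths, stood at 19.0 and 22.9 CPM in shAdnp, against 9.32 and 6.80 CPM in its GFP controls (1.38 ± 0.30 SE). Its partner Col1a2 had 49.0 and 57.3 CPM in shAdnp, against 28.4 and 31.3 CPM in the controls (0.83 ± 0.24). The shAdnp libraries were clear of the controls for both chains. Col3a1, the fibril chain of distensible vessel walls, had 34.5 and 33.3 CPM in shAdnp, against 13.7 and 14.8 CPM in the controls (1.25 ± 0.40). Col5a2, a chain that helps start collagen I fibrils, had 14.5 and 12.3 CPM in shAdnp, against 8.57 and 7.07 CPM in the controls (0.78 ± 0.20). Neither gene's groups overlapped. Col5a1, its partner chain, had 14.6 and 19.9 CPM in shAdnp, against 18.2 and 14.0 CPM in the controls, with overlap (0.10). Col11a1, a minor fibril chain, had 5.35 and 9.49 CPM in shAdnp, against 5.67 and 4.43 CPM in the controls, also with overlap (0.55), as had Col24a1 with 2.54 and 3.94 CPM in shAdnp, against 3.48 and 2.36 CPM in the controls.

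The collagen VI class, in which Col28a1 of another collagen type was also counted, was mixed. Of its 7 chains 3 were above 0, and the class median of -0.14 was the value of Col28a1. Col6a2 stood at 19.3 and 16.1 CPM in shAdnp, against 11.4 and 10.5 CPM in its GFP controls, with no overlap (0.70 ± 0.16 SE). Col6a3, the largest chain of the same microfibril, had 7.56 and 6.17 CPM in shAdnp, against 4.91 and 4.76 CPM in the controls (0.51). Col6a1 had 52.8 and 40.5 CPM in shAdnp, against 62.3 and 42.5 CPM in the controls (-0.17). Of the 3 chains of this trimer, Col6a1 was thus the one whose groups overlapped, and a difference between these chains was not tested. The Col6a1 value turned to 0.15 without GFP control replicate 1 of this set and to 0.02 without shAdnp replicate 2.

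Among the fibril-associated collagens, 4 of 9 were higher in shAdnp at an unadjusted p under 0.05 (median 0.23), beside 6.67% of all genes. Col16a1, which links fibrils to cells, stood at 27.5 and 20.9 CPM in shAdnp, against 14.8 and 12.8 CPM in its GFP controls (0.82 ± 0.16 SE). Its groups did not overlap, and it was one of the members with the smallest unadjusted p. Col9a2, Col9a3 and Col20a1 differed by 0.69 ± 0.20, 0.57 ± 0.17 and 0.97 ± 0.29. Col12a1, a collagen of fibril surfaces, had 51.9 and 39.1 CPM in shAdnp, against 64.8 and 50.5 CPM in the controls (-0.34 ± 0.17), and its groups overlapped. Col19a1 had 47.5 and 79.5 CPM in shAdnp, on both sides of 61.2 and 55.7 CPM in the controls (0.12).

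Transmembrane collagens split by gene. Col13a1, a cell-surface collagen best known from the neuromuscular junction, stood at 4.19 and 2.21 CPM in shAdnp, against 0.899 and 0.955 CPM in its GFP controls (1.79 ± 0.40 SE). Both shAdnp libraries were higher, and they differed between themselves by more than the controls did. Col25a1, the neuronal collagen found in amyloid plaques, had 65.7 and 74.3 CPM in shAdnp, against 90.2 and 90.9 CPM in the controls (-0.37 ± 0.30). Col23a1 had 12.6 and 8.80 CPM in shAdnp, against 12.2 and 12.8 CPM in the controls (-0.23). The shAdnp libraries lay below both controls for Col25a1 and overlapped them for Col23a1. The 4 short-chain and other collagens were above 0 in shAdnp (median 0.49). At an unadjusted p under 0.05, 0 of them were called, beside 6.67% of all genes higher and 1.69% lower.

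**Figure D3:**
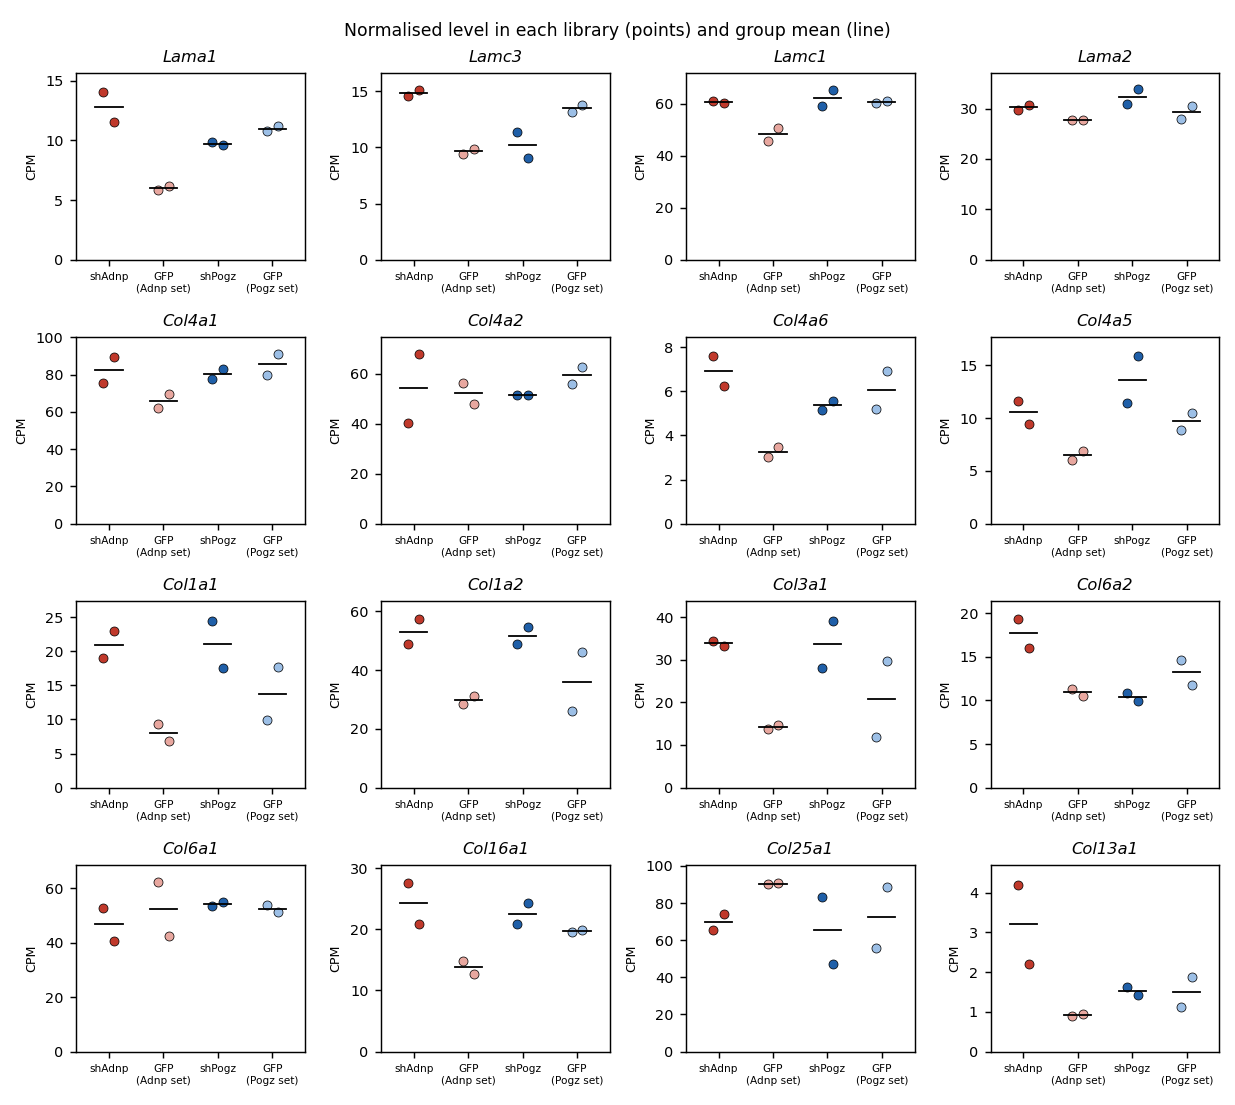
Level of selected chains (CPM) in every library, grouped as shAdnp, its GFP controls, shPogz and its GFP controls, with a point per library and a line at the mean of each group. Lama1 and Col1a1 lie higher in both shAdnp libraries than in both of their controls, and Col25a1 lies lower.

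Chains that share a trimer or a position in it were also set against each other per kb of exon. The ratio of Lama1 to Lama2 was 0.486 and 0.389 in shAdnp, against 0.217 and 0.231 in its GFP controls, and 0.329 and 0.291 in shPogz, against 0.400 and 0.377 in its GFP controls. It was thus above the controls in shAdnp and below them in shPogz. Lama1 made up 14.8% and 9.97% of the summed laminin alpha chain level in shAdnp, against 6.74% and 7.15% in its controls. Its share was 9.87% and 10.03% in shPogz, against 11.14% and 10.25% in the Pogz-set controls. The lower shAdnp share thus lay below both Pogz-set controls. Lama4, with 34.3% to 39.6% over the 8 libraries, was the largest share in each of them. Col6a2 to Col6a1 stood at 0.250 and 0.271 in shAdnp, against 0.125 and 0.169 in its controls, and at 0.139 and 0.125 in shPogz, against 0.187 and 0.157 in its controls. This ratio, too, lay above the controls in the shAdnp set and below them in the shPogz set. Col4a6 to Col4a5 stood at 0.644 and 0.647 in shAdnp, against 0.488 and 0.494 in its controls, and at 0.444 and 0.346 in shPogz, against 0.574 and 0.646 in its controls. Col4a1 to Col4a2 overlapped between groups in the shAdnp set, at 1.83 and 1.29 in shAdnp, against 1.07 and 1.43 in its controls. No test was made on the ratios.

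**Figure D4:**
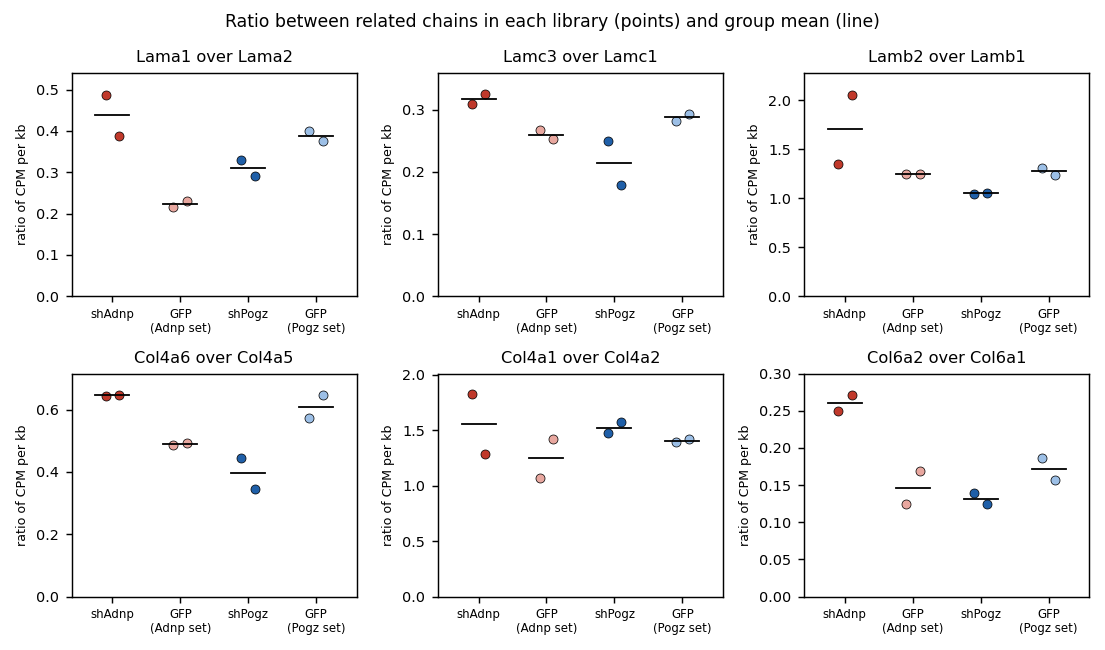
Ratios of chain levels per kb of exon in every library, with a point per library and a line at the group mean, for chains of a trimer or of the same position in it. Lama1 over Lama2 lies at 0.486 and 0.389 in shAdnp and at 0.217 and 0.231 in its GFP controls.

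The genes that make, cross-link and bind these chains were counted from lists, and 0 of their members passed the adjusted p in shAdnp or in shPogz. At an unadjusted p under 0.05, 6.67% of all genes were higher in shAdnp, which is the share to set beside each count. Of 10 tested enzymes and chaperones of collagen synthesis, 3 were higher in shAdnp at an unadjusted p under 0.05 (median 0.27), among them the collagen chaperone Serpinh1 at 39.7 and 31.6 CPM in shAdnp, against 18.1 and 25.3 CPM in its GFP controls. Of 14 procollagen processing and cross-linking genes, 6 were higher (median 0.28). The cross-linking enzyme Lox stood at 3.58 and 1.96 CPM in shAdnp, against 0.916 and 0.907 CPM in its controls, and Pcolce, an enhancer of procollagen cleavage, at 10.8 and 12.3 CPM, against 5.30 and 7.42 CPM. Both shAdnp libraries lay above both controls for these 3 genes, as for 20.4% of all genes. The genes named from these lists were picked by smallest p in these data, so this position carries no further weight. Of 14 collagen and laminin receptors, 3 were higher (median 0.16), including the collagen receptor Ddr2 (0.49 ± 0.16 SE) and the laminin-binding integrin chain Itga6 (0.42 ± 0.13).

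Other basement membrane proteins gave 3 of 13 higher in shAdnp (median 0.26), with Nid1, which ties laminin to collagen IV, at 0.59 ± 0.21 and Sparc, a collagen-binding matrix protein, at 0.48 ± 0.14. Interstitial matrix partners gave 7 of 16 higher (median 0.55), with the small proteoglycans Bgn at 0.96 ± 0.21 and Lum at 1.15 ± 0.38. These are the largest share and median of the matrix lists. Matrix proteases and inhibitors gave 5 of 20 higher (median 0.27), with the membrane-bound protease Mmp14 at 0.88 ± 0.24. The TGF-beta pathway, a known inducer of collagen genes, gave 4 of 17 higher (median 0.08), with Tgfb1 at 4.17 and 4.07 CPM in shAdnp, against 1.14 and 1.99 CPM in its controls. In these 7 lists 0 genes were lower in shAdnp at an unadjusted p under 0.05, beside 1.69% of all genes lower and 6.67% higher. In shPogz the same lists, in the order given, had 1, 1, 2, 0, 0, 2 and 2 genes higher, beside 4.05% of all genes. In shPogz 2 proteases or inhibitors were lower, beside 2.65% of all genes. The shPogz medians were 0.27, -0.00, 0.17, -0.03, 0.08, 0.03 and 0.09.

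Markers of the cell types in the tissue were counted in the same way, and 0 of them passed the adjusted p in shAdnp or in shPogz. At an unadjusted p under 0.05, 6.67% of all genes were higher and 1.69% lower in shAdnp. In shPogz these shares were 4.05% and 2.65%. Of 15 fibroblast and meningeal markers, 10 were higher at an unadjusted p under 0.05 (median 0.77), and their summed level was 338 to 348 CPM in shAdnp, against 213 to 229 CPM in its GFP controls. The sums in the shPogz set overlapped, with 231 to 269 CPM in shPogz, against 230 to 246 CPM in its controls (median 0.07). Of 12 mural cell markers, 3 were higher in shAdnp (median 0.34, sum 291 to 317 CPM, against 244 to 263 CPM), while the shPogz sums lay at 247 to 270 CPM, against 282 to 300 CPM (median -0.17). Of 14 endothelial markers, 2 were higher in shAdnp (median 0.14), and the sums overlapped at 369 to 454 CPM, against 384 CPM in both controls. In shPogz the endothelial sums were 379 to 381 CPM, against 378 to 417 CPM in its controls. Of 11 microglia and macrophage markers, 10 were higher in shAdnp (median 1.01, sum 994 to 1429 CPM, against 469 to 611 CPM), and the shPogz sums were 922 to 1446 CPM, against 804 to 844 CPM (median 0.32). None of the genes in these 4 lists was at 0 in any library. Dcn, Lum and Ogn of the fibroblast list are also in the interstitial matrix list, and Pdgfra is also an oligodendrocyte precursor marker.

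Of 8 astrocyte markers, 3 were higher in shAdnp (median 0.10). The astrocyte filament gene Gfap stood at 767 and 393 CPM in shAdnp, against 93.7 and 191 CPM in its GFP controls (2.03 ± 0.46 SE), and the water channel Aqp4 at 241 and 211 CPM, against 140 and 167 CPM (0.56 ± 0.14). Both genes lay higher in both shAdnp libraries than in both of these controls. In the Pogz-set GFP controls Gfap stood at 318 and 350 CPM, below both shAdnp libraries. Aqp4 stood there at 230 and 199 CPM, which overlapped shAdnp. The summed astrocyte level overlapped at 5394 to 6039 CPM in shAdnp, against 5484 to 6204 CPM in its controls. Much of this sum is 1 gene, Slc1a2, with 2288 to 4216 CPM over the 8 libraries, so it says little about the other markers. Of the 8 markers, 5 were above 0 in shAdnp. Oligodendrocyte and neuron markers had shAdnp medians of 0.04 and -0.08, with 0 of 9 and 0 of 9 higher. Of the neuron markers 1 of 9 was above 0 in shAdnp, and 1 was lower at an unadjusted p under 0.05, Neurod6 (-0.45 ± 0.15 SE). In shPogz the medians were -0.17 for astrocytes, 0.38 for oligodendrocytes and -0.19 for neurons. At an unadjusted p under 0.05, shPogz had 1 microglial marker higher, and 1 fibroblast, 1 mural and 1 astrocyte marker lower. The endothelial, oligodendrocyte and neuron lists had 0 either way in shPogz. Choroid plexus markers were near 0, with sums of 4.03 to 5.62 CPM in shAdnp, against 3.12 to 3.74 CPM in its controls, and 4.51 to 4.54 CPM in shPogz, against 5.54 to 6.61 CPM in its controls. Of its defining markers, Otx2 was at 0 in 5 libraries and Kcne2 in 2. The part of any cell type in the collagen and laminin differences was not tested.

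In shPogz prefrontal cortex the members lay on both sides of their controls. The median log2 fold change was -0.09, against -0.02 over all genes, and 22 of 55 members were above 0, against 46.4% of all genes. At an unadjusted p under 0.05, 2 of 55 members (3.64%) were higher, Col4a5 and Col5a2, beside 4.05% of all genes, and 1 was lower, Lamc3, beside 2.65% of all genes. Both shPogz libraries lay above both controls for 9 members (16.4%, against 19% of all genes) and below both for 12 (21.8%, against 21.3% of all genes), shares near the background. With edgeR adjustment, 0 of 55 members passed, as did 0% of all genes, and the smallest adjusted p of a member was 0.667. DESeq2 called 0 members and limma-voom 0 genes. Without GFP control replicate 2 of this set, 8 members were higher and 3 lower at the unadjusted p, beside 5.43% and 3.13% of all genes in that fit, and the median turned to 0.09.

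Col4a5 stood at 11.4 and 15.9 CPM in shPogz, against 8.91 and 10.5 CPM in its GFP controls (0.49 ± 0.20 SE). Col5a2 had 13.7 and 19.4 CPM in shPogz, against 10.7 and 12.5 CPM in its controls (0.51 ± 0.20). For each, both shPogz libraries were above both controls. Lamc3 had 11.4 and 9.04 CPM in shPogz, against 13.2 and 13.8 CPM in its controls (-0.40 ± 0.15), with both libraries lower. Lama1 had 9.85 and 9.59 CPM in shPogz, against 10.8 and 11.2 CPM in its controls (-0.18 ± 0.15), and Col6a2 had 10.9 and 9.98 CPM, against 14.7 and 11.7 CPM (-0.34 ± 0.16). The shPogz libraries were the lower ones for both genes, by less than they were the higher ones in the shAdnp set.

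Collagen I and III chains were spread widely within the shPogz set. Col1a1 had 24.4 and 17.6 CPM in shPogz, against 9.87 and 17.7 CPM in its GFP controls (0.59 ± 0.30 SE), and Col3a1 had 28.1 and 39.2 CPM, against 11.95 and 29.8 CPM (0.67 ± 0.40). The controls differed from each other as much as the groups did, and the ranges overlapped. Col1a2 had 48.7 and 54.7 CPM in shPogz, against 26.2 and 46.1 CPM in its controls (0.51 ± 0.24), with no overlap. The vascular chains stayed close to the controls. Col4a1 had 77.7 and 83.0 CPM in shPogz, against 80.0 and 91.2 CPM in the controls (-0.09), and Lamc1 had 59.1 and 65.5 CPM, against 60.4 and 61.1 CPM (0.04). Col4a2 had 51.4 and 51.4 CPM in shPogz, against 56.0 and 62.5 CPM in its controls (-0.21), both lower.

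The remaining vascular laminins in the shPogz set overlapped their controls for Lamb2, Lamb1, Lama4 and Lama5 but not for Lama2. Lama2 had 30.8 and 33.9 CPM in shPogz, against 27.9 and 30.6 CPM in its controls (0.15 ± 0.11). Lamb2 had 38.1 and 31.0 CPM in shPogz, against 37.4 and 43.5 CPM in the controls (-0.23), and Lama4 22.1 and 21.2 CPM, against 21.1 and 25.4 CPM (-0.11). Among the neuronal collagens, Col25a1 had 83.2 and 47.3 CPM in shPogz, against 56.0 and 88.8 CPM in its controls (-0.15), with wide spread in both groups. Col19a1 had 63.4 and 49.5 CPM in shPogz, against 74.1 and 70.1 CPM in its controls (-0.35), with both libraries lower.

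The average of both hairpins against GFP, over both sets, gave a member median of 0.12, against -0.02 over all genes. At an unadjusted p under 0.05, 15 of 55 members (27.3%) were higher, beside 8.72% of all genes, and 0 were lower, beside 3.16% of all genes. With adjustment, 0 of 55 passed, beside 0% of all genes, with a smallest adjusted p of 0.190 in edgeR. limma-voom called 0 members and DESeq2 called 8, which were Col16a1, Col18a1, Col1a1, Col1a2, Col3a1, Col4a5, Col5a2 and Lama1, all higher (14.5%, against 3.95% of all genes). The members whose hairpin libraries lay above both own controls in both sets were 7 (12.7%, against 7.12% of all genes), namely Col16a1, Col18a1, Col1a2, Col4a5, Col5a2, Col8a1 and Lama2. Col6a4 was the 1 member below in both (1.82%, against 5.31% of all genes). Without shPogz replicate 1, edgeR called Col5a2, Col16a1 and Col4a5, in a fit that also called many genes outside the members. Calls in that fit are therefore not particular to the members.

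The shPogz response minus the shAdnp response was tested directly. The members had a median of -0.41, against -0.02 over all genes, and 13 of 55 (23.6%) had an unadjusted p under 0.05, all negative, beside 3.51% of all genes. Lama1 differed by -1.27 ± 0.22, Col4a6 by -1.28 ± 0.31, Col6a2 by -1.03 ± 0.23, Lamc3 by -1.02 ± 0.21 and Col13a1 by -1.79 ± 0.56 (log2, SE). With adjustment, 0 of 55 members passed, beside 0% of all genes, and the smallest adjusted p of a member was 0.978 in edgeR. DESeq2 called 1 member, Lama1 (1.82%, against 0.0115% of all genes), and limma-voom 0. The 13 became 6 without Pogz-set GFP control replicate 2 (5.49% of all genes in that fit), 7 without shAdnp replicate 2 (2.88%), 8 without Adnp-set GFP control replicate 1 (1.79%) and 8 without shPogz replicate 1 (6.57%). Both shAdnp libraries lay above and both shPogz libraries below their own controls for 4 members (7.27%, against 2.33% of all genes).

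The 2 sets of GFP controls also differed from each other. Against the Adnp-set controls, the Pogz-set controls had a member median of 0.34, against 0.01 over all genes, and 17 of 55 members (30.9%) were higher at an unadjusted p under 0.05, beside 4.65% of all genes, with 0 lower, beside 2.7% of all genes. After adjustment 0 of 55 members passed, beside 0.00574% of all genes, with a smallest member adjusted p of 0.295. Lama1 stood at 10.8 and 11.2 CPM in the Pogz-set controls, against 5.84 and 6.21 CPM in the Adnp-set controls (0.87 ± 0.16 SE), and was the 1 member that DESeq2 called, beside 0.419% of all genes. The Col4a6 difference was 0.91 ± 0.22 and that of Col11a1 0.89. The shAdnp levels of Lama1 lay above those of both control pairs, and the lower one, 11.6 CPM, was close to the Pogz-set controls. Col1a1, Col1a2, Col3a1, Col6a2, Col9a2, Col13a1, Col15a1, Col16a1 and Lamc3 also lay above both control pairs in both shAdnp libraries. Col4a1, Col4a5, Col4a6, Col5a2, Col6a3, Col9a3, Col18a1, Col20a1, Lama2, Lama4, Lamb2 and Lamc1 lay above the Adnp-set controls but overlapped the Pogz-set controls. Adnp-set controls enter the comparison of GFP sets and the shAdnp comparison alike, so the 2 are not independent. Without Pogz-set control replicate 2 the count was 4 in place of 17 (3.54% of all genes in that fit), and it was 9 without Adnp-set control replicate 1 (1.81%) and 8 without Adnp-set control replicate 2 (5.18%).

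The same split shows in each library taken alone. Relative to the mean over all libraries, the median member stood at 0.007 and 0.14 in shAdnp, against -0.23 and -0.25 in its GFP controls, and at 0.04 and 0.09 in shPogz, against 0.002 and 0.17 in its GFP controls (log2). The Adnp-set controls were the 2 lowest of the 8 libraries.

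Some members share sequence on the genome with another gene, and the strand setting of the counting is not given. Col10a1 lies within Nt5dc1 on the opposite strand, and Lamb3, Col18a1 and Col9a3 overlap Hsd11b1 and G0s2, Slc19a1 and Tcfl5. Col4a1 and Col4a2 overlap by 22 bases at their starts. These overlaps are between whole gene spans, introns included, and overlap between exons was not examined. How many reads either gene could take is therefore not known, and the values of these members are uncertain to that extent.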

How the data were processed

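The files deposited by the authors hold raw counts of reads for each gene symbol. STAR, featureCounts, DESeq2 and the mm10 build are named in the submitters' processing notes, but Cutadapt and TopHat2 with RefSeq transcripts in the labels' protocols. Libraries were stranded and ribosomal RNA was depleted, per the labels' protocols. For tool versions and the strand setting of counting, nothing is given in the sources used here. In each file 25 symbols had become dates (0.306% to 0.337% of counts) and 2 were blank, and these were left out. Any 2 libraries differed beyond sampling noise (chi-square over degrees of freedom between 15.0 and 394).

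The tests were run with edgeR 4.0.16 under R 4.3.3. Genes passing filterByExpr at a minimum count of 10 were scaled by TMM and fitted by robust quasi-likelihood over all 8 libraries with 1 mean per group (4 residual degrees of freedom, common biological coefficient of variation 0.171). P-values were adjusted by Benjamini-Hochberg over all 17415 genes at 0.05. They set each difference against a spread between libraries that is pooled over the 4 groups of 2 and moderated across genes. No batch is given in the labels. Code was tested on simulated data. Exon lengths and gene positions come from GENCODE M21 on GRCm38, the assembly of mm10 (55 of 55 symbols matched), and promoter windows from RefSeq.

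The members, gene lists and tests were chosen with earlier results of these data known. Values in every library are given for up to 10 members per hairpin with the smallest unadjusted p. They are also given for 10 vascular collagen IV and laminin chains, 8 fibroblast collagens and 6 neuronal or other collagens. For each other list, up to 3 genes with the smallest unadjusted p in either hairpin comparison are given. Values of 1 member are not reported here singly, and it stays in the counts and medians. Further genes named were chosen after their values were seen. The alternatives were DESeq2 1.42.0, limma-voom (limma 3.58.1), RLE scaling, upper quartile scaling, a fit without the low-count filter, 1 CPM in 2 libraries, an adjusted p of 0.1, only the libraries compared, a replicate block and each replicate left out. Counts at an unadjusted p and the removal of Rn45s from library sizes were added after the data were seen.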

Additional observations from a re-analysis of the deposited data

Results flagged for a closer look

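For 4 members, both shAdnp libraries lay above both of their GFP controls while both shPogz libraries lay below both of theirs. The shPogz response minus the shAdnp response was -1.27 for Lama1, -1.02 for Lamc3, -1.03 for Col6a2 and -0.87 for Col17a1, a collagen of epithelial anchoring (log2, 2 libraries per group). This difference was tested directly, and each had an adjusted p of 0.978 in edgeR. Such opposite positions were found for 7.27% of the members, against 2.33% of all genes tested. Each difference of responses uses both pairs of GFP controls. The Pogz-set controls stood above the Adnp-set controls by 0.87 for Lama1, 0.48 for Lamc3, 0.27 for Col6a2 and 0.21 for Col17a1 (log2), and the control pairs overlapped for Col17a1.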

How the results depend on the processing

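The number of genes and members past the adjusted threshold changed with the tool, the replicate block and the library left out. DESeq2 called 420 genes in shAdnp, 11 of them members, 100 in shPogz with 0 members, 693 in the average of both hairpins with 8 members, 2 in the difference of responses with 1 member, and 73 between the GFP sets with 1 member. edgeR called 1 gene between the GFP sets and 0 elsewhere. Between the GFP sets, an adjusted p of 0.1 gave 6 genes and no low-count filter 6. RLE and upper quartile scaling, limma-voom, the other filter, only the libraries compared and Rn45s left out of library sizes changed no member count past the threshold. Only the libraries compared could not be run for the average and the difference, which need all 4 groups. The causes were not tested.

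The replicate number as a block gave 144 genes and 1 member in shAdnp (Lama1), 26 genes in shPogz, 488 genes and 1 member in the average (Col1a2), and 18 genes between the GFP sets. The second shPogz library, replicate 2 by its title, carries another number in its column name and was blocked as replicate 2. Same-numbered libraries of shAdnp and its controls had a correlation of deviations of -0.0787, those of shPogz and its controls 0.111 and those of the GFP sets 0.214. Over the other pairs of groups it ran from -0.113 to 0.454. Not every pair was above 0.1 and the labels give no shared litter or batch, so the block is not taken as a pairing.

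Leaving out 1 library at a time, with the lone sample of a group assumed to vary like the others, moved several values. In shAdnp, 0 to 8 genes passed, the member median ran from 0.17 (without shAdnp replicate 2) to 0.49 (without shAdnp replicate 1), and 13 to 23 members were higher at an unadjusted p under 0.05. In shPogz, 0 to 153 genes passed (153 without shPogz replicate 1) and the median ran from -0.16 to 0.086 (without Pogz-set GFP control replicate 2). In the average, 0 to 656 genes and 0 to 3 members passed, with 656 genes and 3 members without shPogz replicate 1. In the difference of responses, 0 to 4 genes passed and the median ran from -0.53 to -0.24. Between the GFP sets, 0 to 6 genes passed and the median ran from 0.23 to 0.45. Of 2407 values of single members under an alternative, 87 changed sign without being past the threshold in either setting and 25 moved past it. The lowest total of a member was 159 counts over 8 libraries, so counting error adds to the spread between libraries for the lowest members.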

Other observations

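Single libraries stood apart for some members within a group. Col3a1 had 11.95 and 29.8 CPM in the Pogz-set GFP controls, and Col25a1 56.0 and 88.8 CPM. The 2 libraries of the Pogz-set controls thus differed by more than 1.5-fold for both chains.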
